A study of Mus musculus with 40 samples.

Results

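The 36 BXD lines of this hypothalamus data set fell into sets of 9 and 27 by the count of Rps18, a ribosomal protein gene at the edge of the major histocompatibility complex (MHC) on chromosome 17. The rule took the lines whose Rps18 count, scaled to a library total of 1e6 (CPM), was below 8 as the Rps18-low lines. These were BXD32, BXD44, BXD50, BXD56, BXD70, BXD73, BXD79, BXD87 and BXD103, and the other 27 lines are the Rps18-high lines. BXD lines are recombinant inbred mice bred from C57BL/6J and DBA/2J, so that each line is homozygous for the chromosome segments of either strain. The 40 libraries of the series also include both parental strains and the reciprocal hybrids B6D2F1 and D2B6F1, all basal and untreated, with 1 library each. For a BXD line that library pooled RNA of 3 to 6 hypothalami. Sex and age are not given in the sources used here. No genotypes were used here, so the sides are named by Rps18 and not by a haplotype. The question was which other transcripts, on chromosome 17 and elsewhere, differ between the 9 and the 27 lines.

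The MHC of the mouse, called H2, is a dense block of immune genes. Class I molecules present peptides from the cytosol to CD8+ T cells and natural killer cells, and they pair with beta-2 microglobulin. Class II molecules present peptides from endosomes to CD4+ T cells, with the invariant chain Cd74 and the H2-DM proteins as helpers of peptide loading. The block between them, class III, holds complement and many genes with no immune role. C57BL/6J is known to carry the H2-b haplotype and DBA/2J the H2-d haplotype. In the brain, class II transcripts come mainly from microglia and from macrophages at its borders, while neurons also express class I genes.

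The lines were chosen by their Rps18 level, and H2-K1 and H2-Q2 were named with it as markers of the split, so the values of these 3 genes are description only and carry no test. On the rule's scale the low line nearest the threshold was BXD44 at 2.00 CPM, and the nearest high line was BXD43 at 26.8 CPM. The next lowest high line, BXD65, stood at 36.3 CPM. Thresholds of 4 and 16 CPM selected the same 9 lines. All further values are CPM after TMM scaling, a correction for library composition. Rps18 ran from 1.34 to 2.01 CPM with a median of 1.86 in the low lines and from 27.1 to 47.7 CPM with a median of 40.5 in the high lines. H2-K1, a classical class I heavy chain, ran from 3.37 to 6.44 CPM (median 4.45) in the low lines and from 16.2 to 39.0 CPM (median 30.2) in the high lines. H2-Q2, a class I gene of the Q region, ran from 0.418 to 1.17 CPM in the low lines, with a mean of 0.693 ± 0.222 (SD, n = 9), and from 6.80 to 15.7 CPM in the high lines, with a mean of 10.2 ± 2.46 (SD, n = 27). The sides did not overlap in any of the 3 genes.

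Some libraries stand apart from the rest, and several results below are given with and without BXD32 or BXD70. Medians and unadjusted p counts of gene lists are given with all lines only. BXD32, an Rps18-low line, held 148 CPM of a list of 21 hindbrain and spinal cord genes that was chosen after its values were seen. No other BXD line reached more than 1.92 CPM. The Hox genes and the glycine transporter Slc6a5 (56.5 CPM) were in that sum, and the labels' extraction text covers brainstem as well as hypothalamus. BXD32 also had the highest sum of choroid plexus genes (1950 CPM, against 304 to 510 CPM in the other lines). On the first principal component of genes off chromosome 17, which carried 10.3% of their variance, BXD32 lay at -39.4 and BXD43 at -34.0, with the other 34 lines between -20.0 and 13.9. Hypothalamic markers were present on both sides: Pmch ran from 81.1 to 152 CPM and from 67.6 to 158 CPM, and Nkx2-1 from 23.8 to 31 CPM and from 20.9 to 42.7 CPM.

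The 18 genes whose sides did not overlap include the markers Rps18, H2-K1 and H2-Q2. Over these 18 genes each parental library lay within the range of lines of one side or in the gap between the sides. C57BL/6J was within the range of the Rps18-high lines in 14 genes and in the gap in 4, which were H2-DMb1, H2-Ea-ps, Gm8801 and Gm11127. DBA/2J was within the range of the Rps18-low lines in 9 and in the gap in 9, Rps18 among them, at 7.95 CPM against 32.5 CPM in C57BL/6J. The C57BL/6J library held 13 reads of Gm11127, which had 0 reads in all 27 high lines. B6D2F1 was in the gap in 15 of the 18 genes and D2B6F1 in 9. On a scale with 0 at the median of the low lines and 1 at that of the high lines, the median position was 0.143 for DBA/2J, 0.438 for B6D2F1, 0.554 for D2B6F1 and 0.836 for C57BL/6J.

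Totals ran from 20.2 to 26.1 M counts (M for 1e6) in the low lines (median 23.2) and from 12.2 to 40.4 M in the high lines (median 22.6). With 1 library a line, each p-value sets the difference between the sides against the spread between lines of a side. Of 15837 genes tested with edgeR's quasi-likelihood test, 92 passed an adjusted p of 0.05, which is 0.581% of the genes tested. Of these, 58 (0.366%) were higher in the Rps18-high lines and 34 (0.215%) were higher in the Rps18-low lines. Chromosome 17 held 76 of the calls, 9.87% of its 770 tested genes, and 73 without Rps18, H2-K1 and H2-Q2. All other chromosomes together held 16, which is 0.107% of 15014 genes. In 18 genes the 9 and 27 lines did not overlap, 0.114% of all genes tested, and all 18 were on chromosome 17. The markers Rps18, H2-K1 and H2-Q2 are among the 18 and carry no test. Also among the 18 are AA388235, H2-Ea-ps, Mir8094, Gm11127 and H2-Bl, which passed the filter on low counts by 1 side alone. Differences below are log2 values, Rps18-high minus Rps18-low, with the standard error of the fit.

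**Figure D1:**
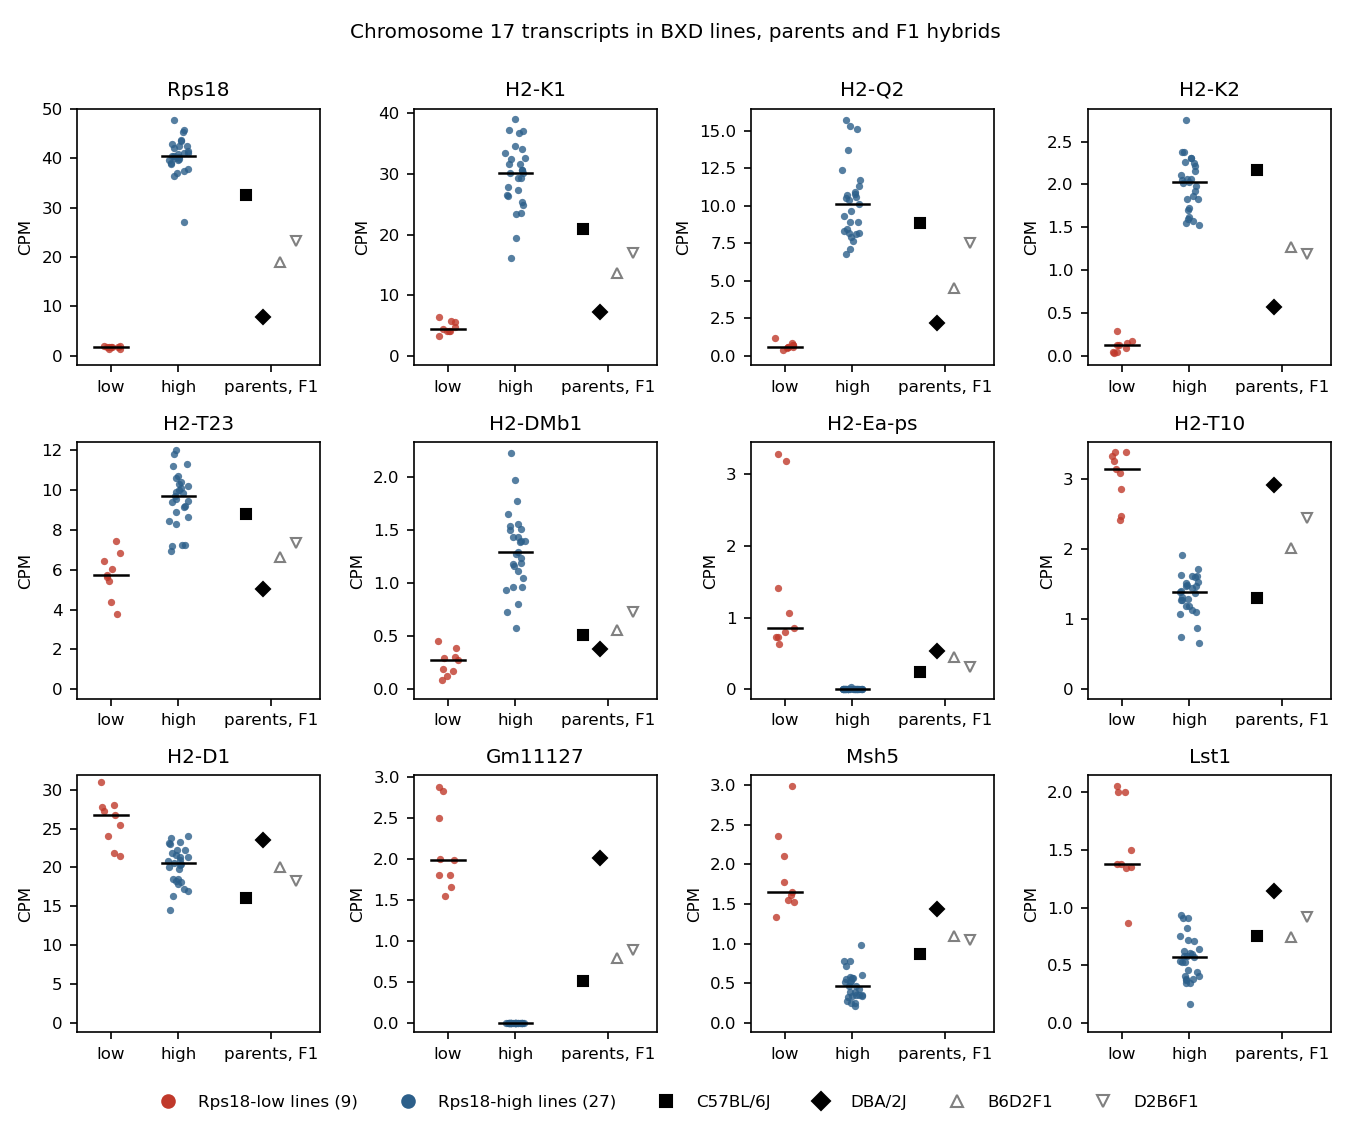
CPM (linear axis, starting at 0) of 12 chromosome 17 transcripts in the 9 Rps18-low lines (red), the 27 Rps18-high lines (blue) and the 4 parental and F1 libraries (black and grey symbols); each point is 1 library and the bars are medians. H2-K2, H2-DMb1 and H2-Q2 are higher in every high line, Gm11127, H2-T10 and Msh5 are higher in every low line.

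Class I transcripts differed in both directions. H2-K2, H2-Bl and H2-T23 were higher in the Rps18-high lines, as were the markers H2-K1 and H2-Q2, while H2-D1 and H2-T10 were higher in the Rps18-low lines. Of 26 class I genes listed, 13 passed the filter on low counts, and 5 of these were called higher, 2 lower and 6 not called, beside 0.581% of all genes tested and 9.87% of those on chromosome 17. H2-K1 and H2-Q2 are among the 5 and carry no test. Without them 3 of 11 were called higher and 2 lower. Of the 3, H2-Bl had 2 reads over the low lines and passed the filter by its reads in the high lines alone. The median difference of the 13, markers included, was -0.0043, and -0.12 without the markers, beside -0.00083 over all genes tested. H2-Q6, H2-Q7, H2-Q8, H2-Q9 and H2-T9 had no read in any line. How reads matching several copies were counted is not given in the sources used here, so this need not mean no transcript. The summed level of the list, which includes the markers, ran from 52.5 to 73.0 CPM in the low lines and from 70.0 to 112 CPM in the high lines, with BXD56 the highest low line.

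The class I promoters are shown because genes of the same family differed in opposite directions. Each line gives the 200 bases before the start site in RefSeq's annotation of GRCm38.p6, 5′ to 3′ on the strand of the gene, from C57BL/6J sequence, and for H2-K1 before the first of its 2 listed start sites. Capitals mark 3 motifs searched on both strands: the NF-kappaB consensus element, GAANNGAAA (a core of interferon-stimulated elements) and ATTGG (the CCAAT box).
H2-K1, chr17:34000348-34000547, minus strand: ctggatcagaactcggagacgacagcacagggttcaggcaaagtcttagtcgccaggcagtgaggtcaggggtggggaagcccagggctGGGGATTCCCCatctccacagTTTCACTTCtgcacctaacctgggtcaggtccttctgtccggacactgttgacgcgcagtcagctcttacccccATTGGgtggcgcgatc
H2-D1, chr17:35262894-35263093, plus strand: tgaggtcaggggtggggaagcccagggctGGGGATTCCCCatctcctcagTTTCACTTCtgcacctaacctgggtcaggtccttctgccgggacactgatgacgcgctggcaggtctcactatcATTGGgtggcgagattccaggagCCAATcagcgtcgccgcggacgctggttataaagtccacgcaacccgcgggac
H2-Q2, chr17:35342107-35342306, plus strand: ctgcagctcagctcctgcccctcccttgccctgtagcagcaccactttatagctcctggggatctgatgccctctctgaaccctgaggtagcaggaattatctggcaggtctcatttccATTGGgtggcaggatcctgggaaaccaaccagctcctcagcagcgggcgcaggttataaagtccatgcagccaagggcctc
H2-T23, chr17:36032702-36032901, minus strand: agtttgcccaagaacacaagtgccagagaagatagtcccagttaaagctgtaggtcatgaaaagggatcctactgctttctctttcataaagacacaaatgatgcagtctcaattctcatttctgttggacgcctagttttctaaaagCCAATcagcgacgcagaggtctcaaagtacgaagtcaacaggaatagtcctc
H2-K1, higher in the high lines, and H2-D1, higher in the low lines, both held all 3 motifs in the reference sequence. The first matched each of them on both strands, overlapping by all but 1 base, and the motifs do not otherwise overlap. H2-Q2 and H2-T23 held only the CCAAT box in these windows. Among 32851 such windows the first motif was in 6.07%, the second in 5% and the third in 29.3%. The alleles of DBA/2J were not read here.

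H2-K2, annotated by RefSeq as a transcribed class I pseudogene beside H2-K1, ran from 0.0383 to 0.287 CPM (median 0.126) in the low lines and from 1.53 to 2.75 CPM (median 2.03) in the high lines. The sides did not overlap, and the difference was 4.00 ± 0.18 (adjusted p = 2.52e-20). H2-Bl, a second transcribed class I pseudogene, had 2 reads over the 9 low lines and 987 over the 27 high lines. Pooled over lines that is a ratio of 162, with an exact 95% interval of 44.8 to 1341 for counting error only. H2-T23 encodes Qa-1, a non-classical molecule that shows leader peptides to natural killer cells. It ran from 3.77 to 7.44 CPM (median 5.72) against 6.95 to 12 CPM (median 9.69), with a difference of 0.74 ± 0.092 (adjusted p = 7.22e-07). Here the sides overlapped: BXD56 was the highest low line and BXD43 the lowest high line.

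The opposite direction was measured in H2-T10 and H2-D1. H2-T10, a non-classical T-region gene whose product binds gamma-delta T cells, ran from 2.42 to 3.39 CPM (median 3.14) in the low lines and from 0.664 to 1.92 CPM (median 1.39) in the high lines. No high line reached a low line, and the difference was -1.16 ± 0.10 (adjusted p = 8.18e-11). H2-D1, the second classical heavy chain of C57BL/6J, ran from 21.5 to 31 CPM (median 26.7) against 14.5 to 24 CPM (median 20.5), with overlap and a difference of -0.36 ± 0.065 (adjusted p = 0.000974). Gm11127, a class I gene of the T region, had 438 reads in the low lines, from 1.55 to 2.87 CPM, and 0 reads in the high lines. With the floor of 3 counts over the group, it was at least 444-fold higher in the low lines. H2-Q4, H2-T24, H2-M3, H2-M5, H2-Q1 and H2-Q10 were not called, with differences from -0.27 to 0.09.

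Counts of class I genes are uncertain where copies are alike. Of all 100-base words in the reference transcripts, the length of a read, 28.1% of those of H2-T10 and 49.9% of those of Gm11127 also occur in another gene. The share was 0.957% for H2-K1, 1.60% for H2-K2, 3.59% for H2-D1 and 3.15% for H2-T23. For Rps18 it was 11.6%, mostly with annotated copies on other loci. Whether reads of sequence-divergent alleles were placed on the right copy was not tested.

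Class II transcripts also differed in both directions. H2-DMb1, H2-Aa and H2-Eb1 were higher in the high lines, and H2-DMa and H2-Ea-ps were higher in the low lines. Of 11 genes listed, 8 passed the filter, with 3 called higher, 2 called lower and 3 not called, again beside 0.581% of all genes and 9.87% of chromosome 17. Of the 2 lower, H2-Ea-ps had 1 read over the high lines and passed the filter by its reads in the low lines alone. The median difference of the 8 was 0.82, and 1.28 with reads recovered from the normalized table, beside -0.00083 over all genes tested. Fewer class II-expressing cells and less RNA per cell cannot be told apart in these bulk samples. Whether reads of sequence-divergent class II alleles were counted as fully as reads that match the reference was not tested. The class II differences are therefore differences in counts.

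H2-Ea-ps is the name in this table for the class II E alpha chain gene, which is known to be silent in mice of the H2-b haplotype. It had 295 reads in the low lines, from 0.628 to 3.28 CPM, and 1 read among the 27 high lines, in BXD61. That gives a ratio of 897 with a counting interval of 160 to 35563. The highest values were BXD70 at 3.28 CPM and BXD56 at 3.18 CPM, and the third was BXD79 at 1.41 CPM. The DBA/2J library had 0.530 CPM and that of C57BL/6J 0.237 CPM from 6 reads, more than any high line.

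H2-DMb1, a chain of the peptide-exchange factor H2-DM, ran from 0.0892 to 0.452 CPM (median 0.273) in the low lines and from 0.574 to 2.22 CPM (median 1.29) in the high lines. The sides did not overlap, with a difference of 2.33 ± 0.22 (adjusted p = 2.58e-10). Its partner chain H2-DMa differed the other way, from 8.93 to 12.7 CPM against 5.80 to 10.9 CPM, by -0.44 ± 0.078 (adjusted p = 0.000565). The paralogue H2-DMb2, which shares 11.3% of the 100-base words of H2-DMb1, was not called (-0.52 ± 0.21, adjusted p = 0.767).

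H2-Aa, the A alpha chain, ran from 0.293 to 1.83 CPM (median 0.5) in the low lines and from 0.415 to 4.46 CPM (median 1.92) in the high lines, a difference of 1.51 ± 0.32 (adjusted p = 0.00841). H2-Eb1, the E beta chain, ran from 0.383 to 2.48 CPM against 0.747 to 3.97 CPM, a difference of 1.06 ± 0.26 (adjusted p = 0.0464). H2-Ab1, the A beta chain, had a difference of 1.27 ± 0.32 and did not pass (adjusted p = 0.0533). H2-Eb1 stayed below 0.05 in 12 of 36 fits that left out 1 line each, with 0.149 the highest adjusted p, without BXD87.

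BXD56 and BXD70 were the highest low lines in H2-Aa (1.83 and 1.60 CPM) and H2-Eb1 (2.48 and 2.34 CPM). They also had the highest Cd74 of all 36 lines, at 12.3 and 9.98 CPM. Cd74, on chromosome 18, did not pass between the sides (-0.05 ± 0.24, adjusted p = 1). With log2 Cd74 as a covariate, an analysis added after the values were seen, H2-Aa differed by 1.58 ± 0.15 (adjusted p = 4.79e-10), H2-Eb1 by 1.15 ± 0.13 (adjusted p = 1.21e-07) and H2-Ab1 by 1.21 ± 0.19 (adjusted p = 8.91e-05). In that fit H2-DMb1 differed by 2.33 and H2-DMa by -0.45, within 0.01 of the values above.

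**Figure D2:**
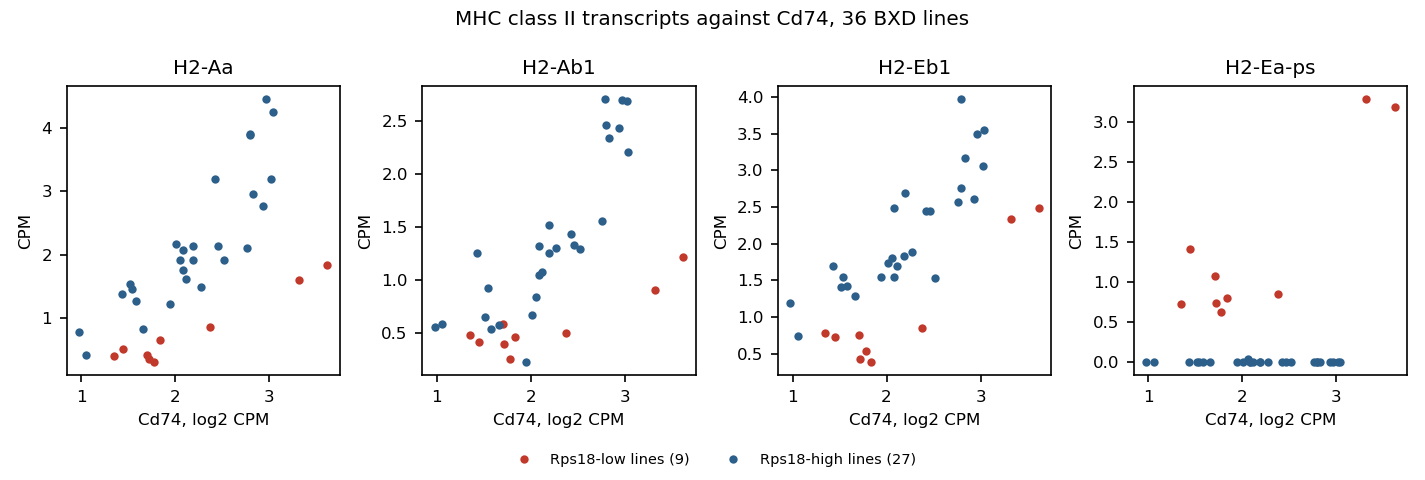
CPM of 4 class II transcripts (vertical axes, linear) against log2 CPM of Cd74 (horizontal axes) in the 9 Rps18-low lines (red) and the 27 Rps18-high lines (blue); each point is 1 library. The 2 red points at the right of each panel are BXD70 and BXD56, with H2-Ea-ps at 3.28 and 3.18 CPM, and 26 of the 27 high lines have no read of H2-Ea-ps.

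Neither list of antigen presentation genes outside class I and class II held a call. None of Tap1, Tap2, Psmb8, Psmb9 and Tapbp, which make and load class I peptides and lie among the class II genes or near Rps18, passed the test. An unadjusted p under 0.05 was found in 5.17% of all genes tested and in 26.8% of those on chromosome 17. It was reached by 1 of the 5, Tap2 (0.18 ± 0.062, adjusted p = 0.400). Of 17 genes of antigen presentation outside chromosome 17, 0 passed and 1 had an unadjusted p under 0.05. B2m, the light chain of class I, ran from 47.7 to 86.7 CPM and from 44.5 to 94.0 CPM. Ciita, the class II transactivator, differed by 0.29 ± 0.17, and Nlrc5, that of class I, by -0.01 ± 0.15, both with adjusted p = 1.

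The list of class III and complement genes held 6 calls among 53 genes tested of 64 listed, 1 higher and 5 lower. The median difference was 0.01. The 1 higher call, Abcf1, lies 96 tested genes after Rps18, past H2-D1 at 74 and H2-Q10 at 78, and so outside the class III block proper. The share called in this list is to be read beside 9.87% for all of chromosome 17. Msh5, a meiotic mismatch repair homologue, ran from 1.34 to 2.98 CPM (median 1.65) in the low lines and from 0.208 to 0.981 CPM (median 0.464) in the high lines. Its sides did not overlap (-1.96 ± 0.16, adjusted p = 1.04e-11). Lst1, a leukocyte transcript, ran from 0.863 to 2.05 CPM against 0.166 to 0.938 CPM (-1.45 ± 0.16, adjusted p = 2.03e-08), and only BXD32 of the low lines reached into the range of the high lines.

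The complement genes C4a and C4b share 13.1% and 15.2% of their 100-base words, so their reads cannot be separated with certainty. C4a ran from 3.97 to 7.68 CPM in the low lines and from 2.71 to 4.85 CPM in the high lines (-0.44 ± 0.086, adjusted p = 0.00291). C4b ran from 28.7 to 112 CPM against 20 to 56.7 CPM (-0.61 ± 0.15, adjusted p = 0.0479). BXD70 gave the highest value of both genes, and without BXD70 the difference of C4b was -0.43 with an adjusted p of 0.315. The C4b call held in 10 of the 36 fits with 1 line left out, and that of C4a in all 36. Notch4, an endothelial Notch receptor, differed by -0.35 ± 0.066 (adjusted p = 0.00144). Abcf1, a translation factor, differed by 0.16 ± 0.035 (adjusted p = 0.00950). Cfb and C2, the other complement genes of the block, were not called (adjusted p = 1 and 0.977).

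Around Rps18 the differences varied in size from gene to gene. Among the 5 tested genes on either side of it, only Vps52 was lower in the high lines. Of the 5 tested genes before Rps18 in reference order, Rgl2 was called and the other 4 were not. Rgl2, a guanine nucleotide exchange factor for Ral, ran from 38.5 to 51.3 CPM (median 43.8) in the low lines and from 65.6 to 85.5 CPM (median 76.7) in the high lines, a difference of 0.77 ± 0.044 (adjusted p = 5.64e-17) with no overlap. Zbtb22, H2-Ke2, Wdr46 and B3galt4 were not called, with H2-Ke2 nearest to it (0.23 ± 0.059, adjusted p = 0.0687). After Rps18 the order is Vps52, H2-K2, AA388235, H2-K1 and Ring1. Vps52, a subunit of a tethering complex for Golgi transport, was lower in the high lines (-0.27 ± 0.039, adjusted p = 1.76e-05) and shares 2.64% of its words with Rps18. Ring1, a Polycomb subunit, was higher (0.38 ± 0.060, adjusted p = 9.34e-05). AA388235, a long noncoding RNA, had 3 reads in the low lines and 3521 in the high lines, a ratio of 386 with a counting interval of 132 to 1872.

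The genes most like Rps18 over the 36 lines, by Pearson's r of log2 CPM, were Gm11127 (-0.995), AA388235 (0.992) and H2-K2 (0.982). These values describe 36 lines that fall into separate sets, so r mostly restates the distance between the sides. Other chromosome 17 genes without overlap were BC051226 and BC051142, both higher in the high lines (1.27 ± 0.13 and 1.34 ± 0.12), Trim15 (1.12 ± 0.10), C920025E04Rik (3.51 ± 0.25) and Gm8801 (-6.05 ± 0.25, 247 reads in the low and 8 in the high lines). The locus of Mir8094 had 0 reads in the low lines and 286 in the high lines, at least 31.3-fold higher against a floor of 3 counts over the group. Rps18 was the sole member called of 74 ribosomal protein genes tested, and it chose the lines.

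**Figure D3:**
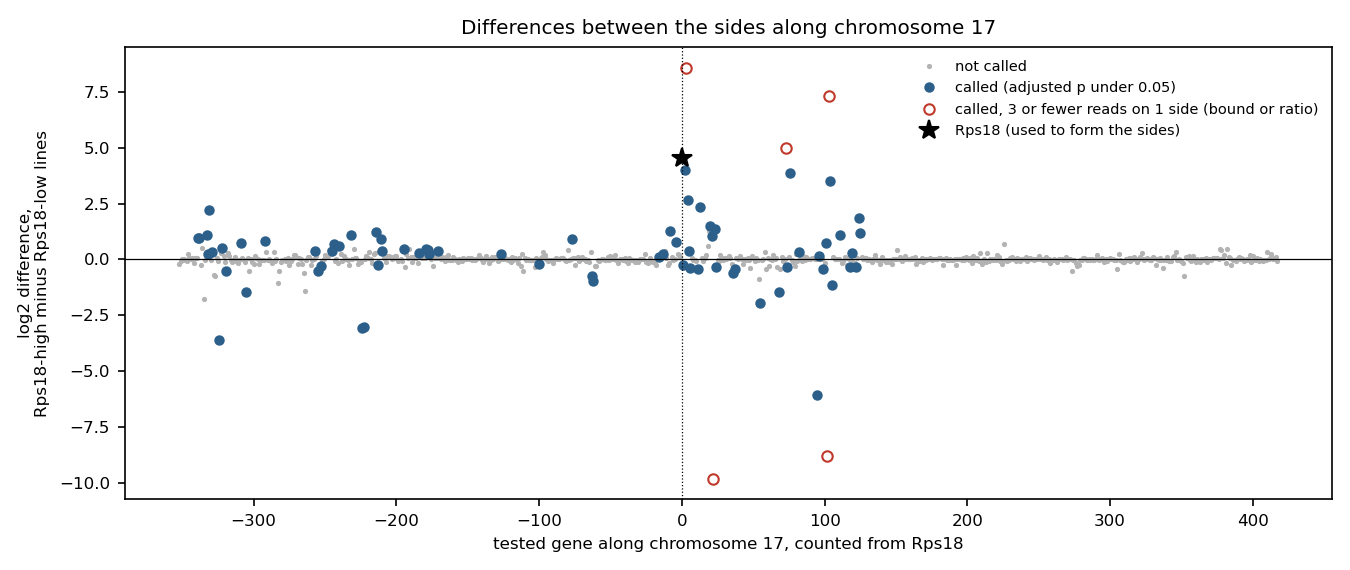
Log2 difference, Rps18-high minus Rps18-low lines, of the 770 tested chromosome 17 genes (vertical axis) against their order counted from Rps18 (horizontal axis); grey points were not called, blue points were called at an adjusted p under 0.05, and open red points are genes with 3 or fewer reads on a side, drawn at their ratio or bound. Called genes reach from 339 tested genes before Rps18 to 125 after it, and none lies among tested genes 151 to 417 after it.

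Called genes were spread over the chromosome up to a limit. The first lay 339 tested genes before Rps18 and the last 125 after it, while the genes without overlap lay between 8 before and 111 after. In the 50 tested genes just after Rps18, 15 were called, and 9 and 11 in the next 2 sets of 50. Beyond that, none of the tested genes at places 151 to 417 was called. Before Rps18, 4 of the nearest 50 were called, and 11 of the 52 farthest.

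How far the same lines stayed together was read from genes with an empty interval, the widest step between sorted log2 values with at least 3 lines on each side. On chromosome 17, 16 genes had an interval of at least 1 log2 unit. Of these, 11 parted all 36 lines as Rps18 did (Rps18, H2-K1 and H2-Q2 included, and 8 of 13 without them), and they lay from Rps18 itself to C920025E04Rik, 104 tested genes on. AA388235, H2-Ea-ps, Mir8094, Gm11127 and H2-Bl, all among the 8, had 3 or fewer reads over 1 side. They passed the filter by their reads on the other side alone, so their parting is description only. The remaining 5 of the 16 genes, all before Rps18, parted some lines differently. Prss33, Prss41 and Rnps1 did so in BXD70, BXD64 and BXD98. Ccr6, a chemokine receptor farther out, did so in BXD50, BXD55 and BXD75, and Fpr2, a formyl peptide receptor, in 7 lines. At an interval of 0.5 there were 34 such genes, of which the same 11 parted the lines as Rps18 did. Among them Glo1 and Dnah8, 63 and 62 tested genes before Rps18, differed from it in BXD70, BXD79, BXD87 and BXD98. H2-Ob and Ly6g6d, 18 and 58 genes after it and so between Rps18 and C920025E04Rik, parted the lines otherwise, with 9 and 8 lines unlike Rps18. Their steps set apart only 4 and 3 lines, at or near the minimum of 3. H2-Ob had 1 to 20 reads a line, and the part of counting error in its sides was not tested. Gpr115, 124 genes after Rps18, differed in BXD55, BXD65, BXD89, BXD97 and BXD100. The order of genes is that of GRCm38.

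**Figure D4:**
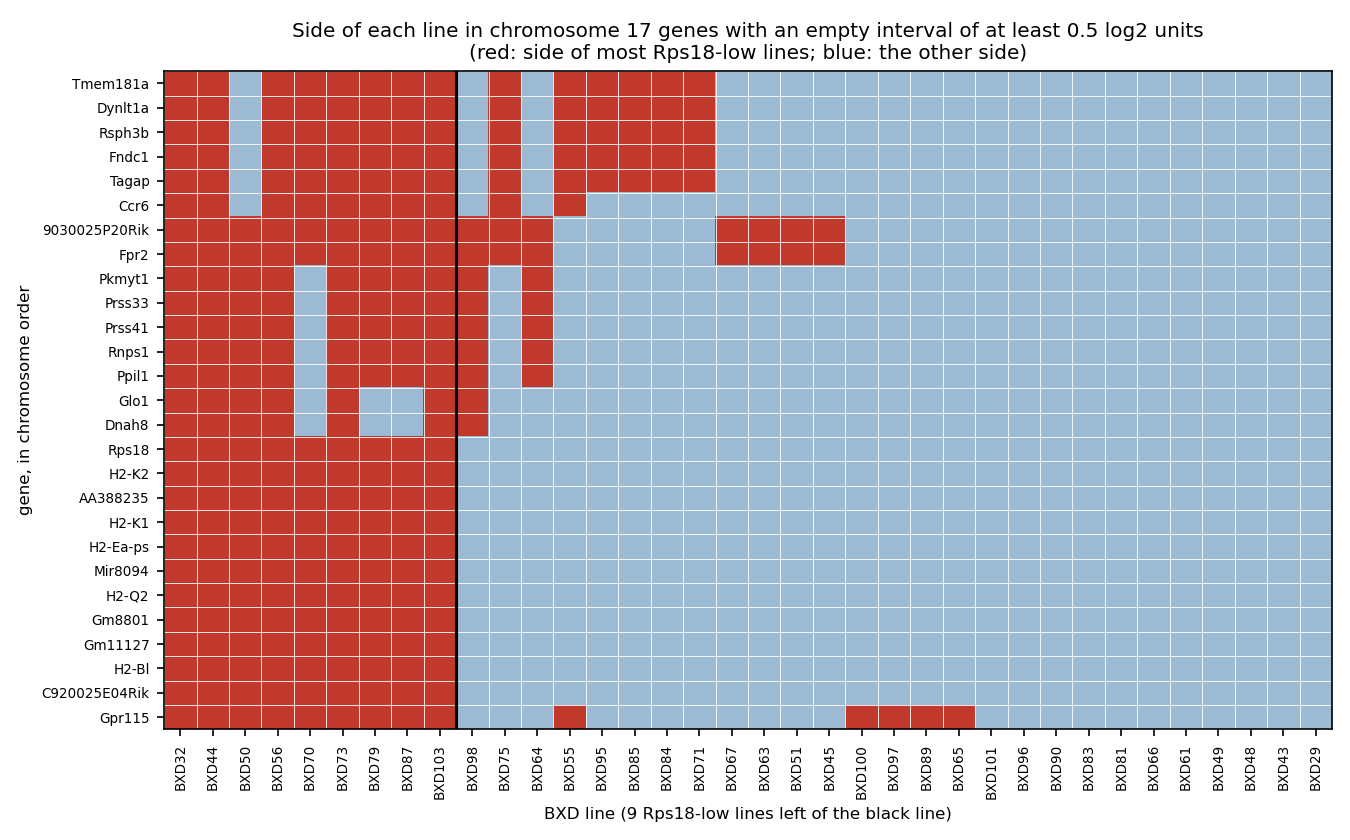
Side of each of the 36 lines (columns, the 9 Rps18-low lines at the left) in 27 chromosome 17 genes (listed in chromosome order) that have an empty interval of at least 0.5 log2 units and place at least 29 lines as Rps18 does; red is the side of most Rps18-low lines and blue the other side. Among the drawn genes from Rps18 to C920025E04Rik all lines keep their side, lines change side in blocks of neighbouring genes before Rps18, and Gpr115 is the drawn gene beyond C920025E04Rik. H2-Ob and Ly6g6d, with 27 and 28 lines as in Rps18, are not drawn. Also not drawn are Slc22a2 and Mas1 before Rps18 (19 and 25 lines), and Capn11, Pot1b and Plekhh2 beyond C920025E04Rik (26, 28 and 23 lines).

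Glo1 encodes glyoxalase, which detoxifies methylglyoxal, and lies in a segment that is known to be duplicated in some inbred strains, DBA/2J among them. It ran from 61.2 to 138 CPM (median 124) in the low lines and from 54.9 to 107 CPM (median 62.8) in the high lines, a difference of -0.74 ± 0.10 (adjusted p = 1.58e-05). In the low lines BXD70, BXD79 and BXD87 stood at 61.2, 63.6 and 62.3 CPM and the other 6 at 122 CPM or more. In the high lines BXD98 stood alone at 107 CPM. Dnah8 beside it differed by -0.97 ± 0.16 (adjusted p = 0.000150). The other 4 tested genes of that list were not called, among them Glp1r, the receptor of glucagon-like peptide (-0.30 ± 0.083, adjusted p = 0.0978). Prss33, a serine protease, differed by -3.09 ± 0.41 (adjusted p = 3.79e-06). T2, 319 tested genes before Rps18, differed by -0.50 ± 0.078 (adjusted p = 8.69e-05).

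The parental libraries, which the rule did not use, differed in the direction of the lines. Of the 76 called chromosome 17 genes, 75 had the same sign in C57BL/6J minus DBA/2J as in high minus low lines, or 72 of 73 without the 3 marker genes. The exception was Mog, a myelin gene. Among the 694 chromosome 17 genes not called the share was 60.5%, and off chromosome 17 it was 53.0% of genes not called. In 61 of the 76 genes the parental difference was the smaller, beside 200 of the 694 not called. The 76 were picked by their difference between the lines, not between the parents. In 50 of the 76 both hybrids had a level between those of the parents, beside 158 of the 694. These are single libraries, so no test was made. All 18 genes without overlap, the 3 markers among them, shared the sign. H2-Bl was at 1.70 CPM in the C57BL/6J library against 0.303 CPM in that of DBA/2J, and H2-T10 at 1.30 against 2.92 CPM.

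**Figure D5:**
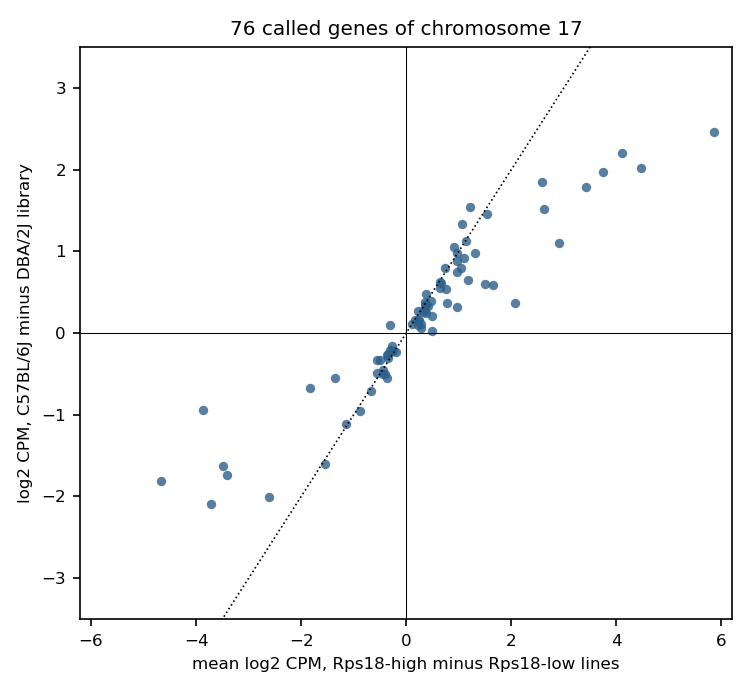
Log2 CPM of C57BL/6J minus DBA/2J, 1 library each (vertical axis), against the difference of mean log2 CPM between Rps18-high and Rps18-low lines (horizontal axis) for the 76 called chromosome 17 genes; the dotted line marks equal differences. In 75 of 76 genes the sign is shared, and in 61 the parental difference is the smaller.

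Of the 16 calls on other chromosomes, 10 were on chromosome 13, which is 1.73% of its 579 tested genes. They included Rsl1, a KRAB zinc finger repressor of sex-dependent liver genes, and the zinc finger genes Zfp874a, Zfp738, Zfp459 and A530054K11Rik. Rsl1 ran from 1.26 to 4.23 CPM (median 1.61) in the low lines and from 1.82 to 4.78 CPM (median 3.78) in the high lines, a difference of 0.93 ± 0.17 (adjusted p = 0.00116). All low lines but BXD70 were at 1.85 CPM or less. A530054K11Rik differed the other way (-1.01 ± 0.21, adjusted p = 0.00764), with BXD70 again apart at 12 CPM and the other low lines at 31.9 CPM or more. Fancc, a Fanconi anaemia gene, differed by 0.82 ± 0.16 (adjusted p = 0.00338), Zfp874a by 0.81 ± 0.17 (adjusted p = 0.00916), Habp4 by 0.29 ± 0.064 (adjusted p = 0.0137) and Mterfd1 by 0.31 ± 0.071 (adjusted p = 0.0164). Zfp738 (0.82 ± 0.19, adjusted p = 0.0236), Hiatl1 (-0.20 ± 0.044, adjusted p = 0.0131) and Zfp459 (0.99 ± 0.24, adjusted p = 0.0333) did not pass without BXD32 (adjusted p = 0.0599, 0.0811 and 0.0925). Leaving out other lines also ended calls. In the 36 fits with 1 line left out, the calls of Habp4, Hiatl1 and Mterfd1 held in 34, 34 and 33. Those of Zfp738, Zfp459 and Srd5a1 held in 29, 28 and 27, and those of Rsl1, A530054K11Rik, Fancc and Zfp874a in all 36. All 10 chromosome 13 genes had the sign of the parental difference.

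The sides of the lines in these chromosome 13 genes overlap in part with those of Rps18. By the widest step in Rsl1, of only 0.35 log2 units, 13 lines were low, and these were 8 of the 9 Rps18-low lines and 5 of the 27 Rps18-high lines. With log2 Rsl1 as a covariate, added after the values were seen, 25 genes were called on chromosome 17, Rps18, H2-K1 and H2-Q2 among them, and 0 elsewhere by edgeR. They lay from BC051226, 8 tested genes before Rps18, to Gabbr1, 119 after it. Rsl1 was itself picked from the chromosome 13 calls, so the loss of calls on that chromosome is no separate result. In that fit H2-T23 differed by 0.77 (adjusted p = 0.000358) and H2-DMb1 by 2.42 (adjusted p = 6.78e-08). H2-D1, H2-DMa, H2-Aa and H2-Eb1 were not called there, with adjusted p of 0.558, 0.226, 0.131 and 0.574. Their differences were -0.30, -0.41, 1.56 and 1.05, beside -0.36, -0.44, 1.51 and 1.06 without the covariate. For lines that are low in both genes, a part of chromosome 17 and a part of chromosome 13 in a difference cannot be told apart.

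The other 6 calls were single genes on 4 chromosomes: Tph2, Insig1, Spp1, Oxsr1, Tmprss5 and 2610035D17Rik. Of these, 5 did not pass without BXD32. Tph2, the brain enzyme of serotonin synthesis, was at 12.8 CPM in BXD32 and from 0.192 to 0.903 CPM in the other low lines, against 0.191 to 0.977 CPM in the high lines. Its difference of -1.95 ± 0.41 (adjusted p = 0.00744) became -0.28 ± 0.23 (adjusted p = 1) without BXD32. Spp1, osteopontin, at 54.2 CPM in BXD32, went from -0.86 ± 0.20 (adjusted p = 0.0265) to -0.42 ± 0.15 (adjusted p = 0.596). Without BXD32, Insig1 went from -0.17 to -0.12 (adjusted p = 0.240), Oxsr1 from -0.16 to -0.11 (adjusted p = 0.230) and Tmprss5 from -0.73 to -0.45 (adjusted p = 0.689). Their calls held in 22, 21 and 12 of the 36 fits with 1 line left out, so other lines also ended them. 2610035D17Rik, a noncoding RNA of chromosome 11, differed by 0.54 ± 0.11 (adjusted p = 0.00421) and by 0.49 ± 0.11 (adjusted p = 0.0204) without BXD32. BXD70 was again the exception among the low lines, at 17.4 CPM with the others at 11.5 CPM or less. Without BXD32, 66 genes were called on chromosome 17, of which 65 were among the 76, and 8 on other chromosomes. Without BXD43 the calls were 82 on chromosome 17 and 19 on other chromosomes.

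The lists for cell types and for immune state held 0 calls, except for Mog and for Tph2 in the hindbrain list. An unadjusted p under 0.05 was found in 5.17% of all genes tested. Of 30 interferon response genes 0 were called and 4 had an unadjusted p under 0.05, with a median difference of -0.12. Of 18 microglial genes 0 were called and 5 had an unadjusted p under 0.05, with a median of 0.02 and summed levels of 420 to 618 CPM and 454 to 631 CPM. Of 20 T, NK and B cell genes, 3 passed the filter and 0 were called. Of 13 tested choroid plexus genes 0 were called and 5 had an unadjusted p under 0.05, with a median of -0.37 and the highest sum in BXD32. Endothelial, astrocyte, meningeal, striatal, thalamic and pituitary lists held 0 calls, those of chaperones, immediate early genes and housekeeping genes held 0, as did 22 hypothalamic neuropeptides and 24 hypothalamic transcription factors. Of 19 tested genes of the glucagon and FGF15 axis named in the series title, 0 were called and 2 had an unadjusted p under 0.05. Fgf15 itself ran from 0.402 to 1.95 CPM and from 0.230 to 2.08 CPM (-0.09 ± 0.32, adjusted p = 1).

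No myelin gene but Mog passed the test. Of 14 oligodendrocyte genes none had a difference above 0, with a median of -0.17, and 7 had an unadjusted p under 0.05, beside 5.17% of all genes. Summed levels ran from 4970 to 8439 CPM in the low lines, the highest in BXD32, and from 4282 to 6808 CPM in the high lines. Mog, myelin oligodendrocyte glycoprotein, is itself on chromosome 17, 118 tested genes after Rps18. It ran from 54.4 to 90.1 CPM against 38.5 to 71.9 CPM (-0.32 ± 0.072, adjusted p = 0.0152). Without BXD32 its difference was -0.30 ± 0.075 (adjusted p = 0.0632). The part of the myelin level in the Mog difference was not tested.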

How the data were processed

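Hypothalamic mRNA was sequenced from 40 mouse strains. The kit was TruSeq Stranded mRNA with 100-base single-end reads, per the labels' protocols, and whether counting used strand is not given in the sources used here. TopHat2 2.0.8, HTSeq 0.5.4p3 and DESeq are named in the submitters' processing notes, with mm9, an assembly of C57BL/6J. How reads from other alleles aligned to it was not tested.

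The authors deposited whole-number read counts for 23955 gene symbols, and every test here starts from these counts. The authors also deposited a normalized signal, counts divided by a size factor per library, for 15251 symbols, and whole reads came back from 100% of its values, to within 0.01. Reads recovered from it served as an alternative.

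The lines were split by Rps18 at 8 CPM of the raw total. Genes kept by filterByExpr went into edgeR's robust quasi-likelihood fit with TMM (edgeR 4.0.16, R 4.3.3), with Benjamini-Hochberg adjustment over all 15837 genes and a threshold of 0.05. Standard errors are the log2 difference divided by the square root of F. Tables and figures were made with Python. For genes with 3 or fewer reads on a side, a pooled ratio with an exact 95% interval or a bound against 3 counts replaces the fitted value, and these cover counting error only. Such genes passed the filter by their reads on the other side. On simulated data with 15769 genes, 83% of genes changed by 0.5 log2 units and 97% of those changed by 1 were recovered, with 10 false calls. Libraries came from 1 RNA pool or strain each, so p-values measure the spread between lines. Alternatives were RLE factors, no filter, recovered reads, both parents added, a principal component as a covariate, DESeq2 1.42.0, each line left out, and, chosen after seeing the data, Cd74 or Rsl1 as covariates.

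Chromosome and gene order came from GENCODE vM21 and RefSeq on GRCm38 for 23827 symbols, and 128 had none. Since the builds differ, no coordinates are given other than those of the printed promoters. RefSeq's promoter table held all 10 genes looked up.

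The 24 gene lists, the split and the rule for named genes were chosen with earlier results of these data known. Of the 493 list entries, 483 were in the table. The rule names the markers, called members of the lists, the 12 genes of lowest adjusted p in each direction on chromosome 17 and the 10 on other chromosomes, 5 neighbours on either side of Rps18 and the 3 genes most correlated with it. Genes outside the rule were named after their values were seen.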

Additional observations from a re-analysis of the deposited data

Results flagged for a closer look

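Among 50 named genes, 8 had a value in a single Rps18-low line that was far from the other 8 lines by Dixon's test, which chance gives in about 1 in 20 groups. BXD70 gave 6 of the 8. It was at 4.23 CPM for Rsl1 (other low lines 1.26 to 1.85), at 12 CPM for A530054K11Rik (31.9 to 44.2) and at 19.5 CPM for Zfp738 (7.03 to 9.44), all on chromosome 13. For 2610035D17Rik on chromosome 11 it was at 17.4 CPM (8.11 to 11.5). On chromosome 17 it was at 0.0411 CPM for Prss33 (0.955 to 1.52) and at 7.68 CPM for C4a (3.97 to 5.52). BXD32 was at 12.8 CPM for Tph2 (0.192 to 0.903) and at 0.863 CPM for Lst1 (1.34 to 2.05).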

How the results depend on the processing

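The 76 calls on chromosome 17 came to 75 with RLE factors, 80 with no filter, 77 with recovered reads, 85 with both parents added, 92 with the first principal component, 93 with DESeq2 and 78 with Cd74 as a covariate. With Rsl1 as a covariate, added after seeing the data, 25 remained. Leaving out 1 line gave 66 to 83. The 16 calls on other chromosomes came to 39 with no filter, 28 with the principal component, 24 with both parents added or with DESeq2, 16 with RLE factors or recovered reads and 0 with Rsl1, where 455 of all genes had an unadjusted p under 0.05. Leaving out 1 line gave 8 (without BXD32) to 29 (without BXD85), and 10 without BXD79. The 22 called list members came to 11 with Rsl1 and to 20 to 26 with 1 line left out. Rsl1 was itself picked from the chromosome 13 calls. With it the differences of some other chromosome 13 genes became small, with the opposite sign: Mterfd1 -0.0060, Zfp874a -0.071, A530054K11Rik 0.031, Zfp738 -0.160, Srd5a1 -0.024 and Zfp459 -0.082. These changes are therefore no separate result, and their cause was not tested.

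The shared parental sign (75) and the genes parting all lines as Rps18 did (11) were the same with a prior count of 0.5 and an interval of 0.5. Among planned settings C4b lost its call with no filter (adjusted p = 0.0544), H2-Eb1 with recovered reads (adjusted p = 0.0626) and Tph2 with the principal component (adjusted p = 0.489) and DESeq2 (adjusted p = 1). Spp1 and Tmprss5 also lost theirs with the principal component, and Oxsr1 with both parents. H2-Ke2 gained one in 3 settings. The class II median was 1.28 with recovered reads. No paired analysis was possible because each line has 1 library and no library of the low lines is matched to a high line. On a side with 3 or fewer reads in all, depth limits the level.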

Other observations

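Other called genes of chromosome 17 are given here, chosen after their values were seen. Gabbr1, a subunit of the GABA-B receptor, ran from 625 to 816 CPM in the Rps18-low lines and from 794 to 1001 CPM in the Rps18-high lines (0.29 ± 0.032, adjusted p = 2.97e-08). Park2, the gene of the ubiquitin ligase parkin, ran from 9.62 to 12.5 CPM and from 8.88 to 25.2 CPM (0.73 ± 0.15, adjusted p = 0.00860). Mut, methylmalonyl-CoA mutase, was higher in the low lines, from 63.6 to 86.5 CPM against 44.7 to 73.3 CPM (-0.35 ± 0.067, adjusted p = 0.00226). Rnps1, a splicing factor, ran from 22.1 to 56.5 CPM with BXD70 highest and from 20.7 to 59.6 CPM with BXD64 lowest (0.93 ± 0.14, adjusted p = 9.34e-05). Ccr6 ran from 0 to 2.38 CPM and from 0 to 2.32 CPM (-3.59 ± 0.61, adjusted p = 0.000439), with BXD50 at 0 among the low lines and BXD55 at 2.32 CPM among the high lines.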
